A study of Mus musculus with 6 samples.

Results

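Sympathetic nerve and catecholamine genes were examined in heart RNA of VAChT KDHOM and WT mice. The 7 genes were chosen by function and annotation, with earlier results of these data known. They were taken as every probe set that the platform annotation lists under the single symbol Th, Ddc, Dbh, Pnmt, Slc18a2, Slc6a2 or Npy. Each gene was represented by 1 probe set, so the 7 genes account for 7 of 35556 probe sets on the array and 7 of the 21789 listed with a single gene. VAChT KDHOM mice carry a knockdown of the vesicular acetylcholine transporter in homozygous form throughout the body, without tissue-specific control, and are labelled VAChT KD in the sample records. Hearts of untreated male mice aged 3 months were used for both genotypes, with 3 arrays labelled WT and 3 labelled VAChT KD, and each array held the pooled RNA of 2 samples. The design text names whole hearts and the sample records C57BL/6, whereas the series title and methods name ventricles and the methods give a mixed background that was only partly backcrossed. Whether animals of a group shared a litter is not given in the sources used here, so p-values measure the spread between these pools.

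Sympathetic neurons make noradrenaline from tyrosine. Tyrosine hydroxylase (Th) carries out the rate-limiting step to L-DOPA, aromatic L-amino acid decarboxylase (Ddc) makes dopamine, the vesicular monoamine transporter VMAT2 (Slc18a2) loads it into vesicles, and dopamine beta-hydroxylase (Dbh) converts it to noradrenaline inside them. Phenylethanolamine N-methyltransferase (Pnmt) makes adrenaline from noradrenaline, mainly in the adrenal medulla. After release, the noradrenaline transporter (Slc6a2) takes the transmitter back into the terminal, and neuropeptide Y (Npy) is released alongside it. The cell bodies of most sympathetic neurons of the heart lie in the stellate and neighboring ganglia, outside the tissue sampled. In heart RNA, fewer cells of a type and less RNA per cell cannot be told apart.

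Promoter sequence is shown for Th and Slc18a2, the pair among the 7 genes whose promoter window holds the palindrome TGACGTCA, the cAMP response element bound by CREB. Th had the widest difference between genotypes of the 7 genes and Slc18a2 the narrowest. Sequences are from RefSeq (GRCm38.p6), from 250 bases before to 50 bases after the gene's start, 5′ to 3′ on the gene's strand, with the palindrome in capitals. The Th window is chr7:142899946-142900245 (minus strand) and the Slc18a2 window is chr19:59260628-59260927 (plus strand).
Th: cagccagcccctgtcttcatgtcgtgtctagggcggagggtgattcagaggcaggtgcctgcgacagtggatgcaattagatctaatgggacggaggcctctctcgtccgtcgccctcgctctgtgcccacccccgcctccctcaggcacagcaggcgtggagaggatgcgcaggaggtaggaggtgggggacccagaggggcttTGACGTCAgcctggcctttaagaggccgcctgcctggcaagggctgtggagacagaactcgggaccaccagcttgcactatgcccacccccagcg
Slc18a2: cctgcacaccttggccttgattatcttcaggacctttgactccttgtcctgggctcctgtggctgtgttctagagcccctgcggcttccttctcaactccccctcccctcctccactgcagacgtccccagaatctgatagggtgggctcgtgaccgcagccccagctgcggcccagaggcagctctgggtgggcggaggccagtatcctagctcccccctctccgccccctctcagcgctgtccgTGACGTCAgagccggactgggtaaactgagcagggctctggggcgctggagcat
The palindrome, which reads the same on both strands, began at position -45 relative to the Th start and at position -4 relative to the Slc18a2 start. It was found in 588 of 32851 windows of 300 bases over all genes, which is 1.79%. The RefSeq table held windows for 5 of the 7 genes, and those of Dbh, Npy and Ddc (2 windows) had no copy of these letters. A match describes the sequence and was not tested for activity in the heart.

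The labels of the arrays were checked first. Slc18a3, which encodes VAChT, read 7.31, 7.42 and 7.11 on WT arrays 1, 2 and 3 and 7.24, 6.77 and 7.58 on VAChT KDHOM arrays 1, 2 and 3 (log2 signal), and the genotypes overlapped at this gene. Whether its probes match the part of the allele that was changed is not given in the sources used here. Ogdhl, an oxoglutarate dehydrogenase-like gene, read 9.60 and 10.3 on WT arrays 1 and 3 but 7.21 on WT array 2, and 7.06 and 7.09 on VAChT KDHOM arrays 1 and 3 but 10.2 on VAChT KDHOM array 2. Both arrays numbered 2 therefore read like the other genotype at this gene, and each member's difference is also given below without them. The Ogdhl difference (VAChT KDHOM minus WT, log2) was -0.94 as labelled and -2.89 without both arrays numbered 2. All directions, differences, p-values and separations below are those of the arrays as labelled. If these 2 labels were wrong, differences and p-values would change, and a separation of the genotypes at any gene would become an overlap. Whether these 2 arrays were exchanged was not tested. Signal is the RMA log2 value that the authors deposited, and differences are VAChT KDHOM minus WT. As a guide to background, the 1035 probe sets of olfactory receptors had a median signal of 4.71 and a 95th percentile of 6.5.

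None of the 7 genes differed between the genotypes at an adjusted p of 0.05 in limma, where 0.00281% of all probe sets passed. The 7 adjusted p-values ran from 0.409 for Th to 0.976 for Slc18a2. Th had a mean signal 0.791-fold of WT in VAChT KDHOM hearts, Slc6a2 and Npy were lower by less, and Ddc, Dbh, Pnmt and Slc18a2 differed by 0.11 or less in either direction on the log2 scale. Th and Slc6a2 were below an unadjusted limma p of 0.05, both lower in VAChT KDHOM, whereas 7.81% of all probe sets passed in that direction. None of the 7 was higher at that threshold, against 3.93% of all probe sets, and none passed both an unadjusted p of 0.05 and 1.3-fold, against 3.79%. The 95% interval of every one of the 7 genes lay within 1 log2 unit of 0, that is, within a 2-fold change in either direction. The median difference of the 7 genes was -0.01, and that of all probe sets was -0.02. The arrays were also scaled by further quantile normalization, by median centring and by centring on the signal range of the 7 genes. Under these 3 scalings, in that order, the median was 0.07, 0.06 and 0.08 for the 7 genes. For all probe sets it was -0.01, 0.05 and 0.07.

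**Figure D1:**
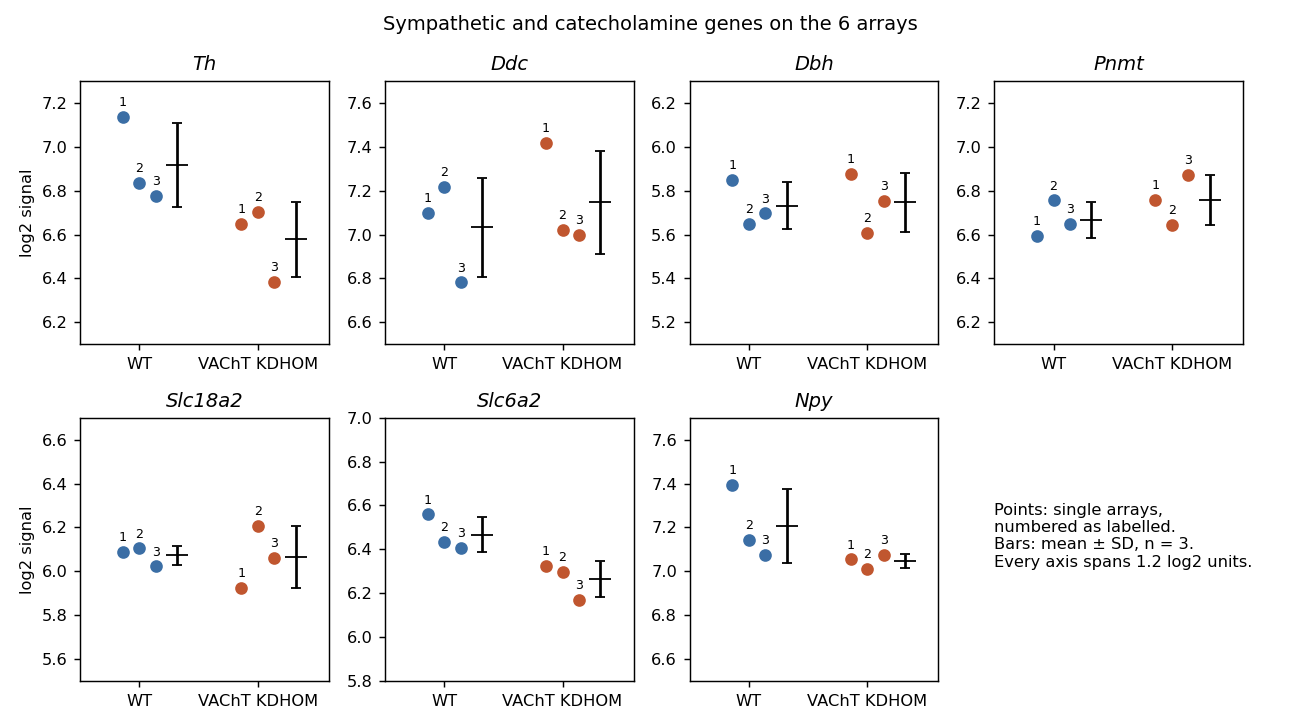
Log2 signal (vertical axes, each spanning 1.2 units) of the 7 genes on the WT and VAChT KDHOM arrays, with points for single arrays, numbered as labelled, and bars for the mean ± SD of 3 arrays. The WT and VAChT KDHOM values did not overlap for Th, Slc6a2 and, by 0.00072, Npy, and overlapped for the other 4 genes.

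Th, at probe set 10569370, read 7.14, 6.84 and 6.78 on WT arrays 1, 2 and 3 and 6.65, 6.70 and 6.38 on VAChT KDHOM arrays 1, 2 and 3. All 3 arrays labelled VAChT KD were below all 3 labelled WT, with the highest value on WT array 1 and the lowest on VAChT KDHOM array 3. Mean signal was 6.92 ± 0.19 in WT and 6.58 ± 0.17 in VAChT KDHOM (SD over 3 arrays each). The difference of -0.34 (standard error 0.13, 95% interval -0.64 to -0.03) corresponds to 0.791-fold of the WT level, with a limma unadjusted p of 0.0338 and an adjusted p of 0.409. The methods' ANOVA, which estimates the spread from Th alone, gave an unadjusted p of 0.0857. Without both arrays numbered 2 the difference was -0.44, and it lay between -0.41 and -0.23 when single arrays were left out. Its limma unadjusted p rose above 0.05 without WT array 1, VAChT KDHOM array 1 or VAChT KDHOM array 3.

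Slc6a2, the noradrenaline transporter (probe set 10573956), read 6.56, 6.43 and 6.41 on WT arrays 1 to 3 and 6.32, 6.30 and 6.17 on VAChT KDHOM arrays 1 to 3. The groups did not overlap, and the arrays at the ends were the same as for Th. The difference was -0.20 (standard error 0.09, 95% interval -0.40 to -0.00), with a limma unadjusted p of 0.0471 and an adjusted p of 0.422. This was the 1 gene of the 7 that passed an unadjusted p of 0.05 in the methods' ANOVA, where 5.96% of all probe sets passed in the same direction. Its mean signal lay below the olfactory receptors' 95th percentile. Without both arrays numbered 2 the difference was -0.24. The limma unadjusted p lay above 0.05 whenever a single array was left out, whichever it was, with differences from -0.23 to -0.16.

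Npy, the neuropeptide co-released with noradrenaline (probe set 10538247), read 7.40, 7.14 and 7.07 on WT arrays 1 to 3. It read 7.05, 7.01 and 7.07 on VAChT KDHOM arrays 1 to 3. The 3 VAChT KDHOM values were close together (SD 0.03), the WT values spread more widely (SD 0.17), and WT array 3 lay above VAChT KDHOM array 3 by 0.00072 only. The difference of -0.16 (standard error 0.10, 95% interval -0.39 to 0.08, limma adjusted p = 0.531) was -0.06 without WT array 1, the array with the highest Npy signal. It was -0.17 without both arrays numbered 2.

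With the arrays as labelled, Th, Slc6a2 and Npy were the 3 genes of the 7 with no overlap between genotypes, each lower in VAChT KDHOM, while 12.9% of all probe sets separated in that direction. No gene of the 7 separated in the other direction, against 6.25% of all probe sets. Across the 6 arrays, which share the genotype contrast, Th and Slc6a2 had the most similar pattern of the 21 pairs of genes (Pearson's r = 0.980, Spearman's rho = 0.943). Th and Npy (r = 0.793) and Slc6a2 and Npy (r = 0.781) followed, and no other pair exceeded 0.473. These correlations describe 6 arrays only. Outside the 7 genes, the pattern of Th was most like that of Mir679 (r = 0.999), that of Slc6a2 like Lce1k, a gene of the skin barrier (r = 0.999), and that of Npy like Prr16 (r = 0.998), among 14474 or 14475 probe sets with 1 symbol and a mean above the olfactory receptors' 95th percentile. For Pnmt the nearest was Eif2b3 (r = 0.996), for Slc18a2 Dnal4 (r = 0.997), for Ddc Nfyc (r = 0.984) and for Dbh Fbxo33 (r = 0.977). A correlation above 0.95 was shared with 508 of these probe sets by Th, 386 by Slc6a2, 163 by Pnmt, 78 by Npy, 15 by Slc18a2, 6 by Ddc and 2 by Dbh.

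Of the remaining enzymes, Ddc (probe set 10384378) read 7.10, 7.22 and 6.78 on WT arrays 1 to 3 and 7.42, 7.02 and 7.0 on VAChT KDHOM arrays 1 to 3. The groups overlapped, and Ddc varied within a genotype more than any other gene of the 7 (SD 0.24 in VAChT KDHOM). Its difference was 0.11 (standard error 0.16, 95% interval -0.25 to 0.48), and it was 0.27 without both arrays numbered 2. Dbh (probe set 10470412) read 5.85, 5.65 and 5.70 in WT and 5.88, 5.61 and 5.75 in VAChT KDHOM. The largest and the smallest Dbh values were both on VAChT KDHOM arrays, so that the enzyme that defines noradrenergic neurons showed no separation, with a difference of 0.01 (standard error 0.10, 95% interval -0.22 to 0.25). Its signal lay below the olfactory receptors' 95th percentile, and without both arrays numbered 2 the difference was 0.04.

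Pnmt (probe set 10380891), of adrenaline synthesis, read 6.59, 6.76 and 6.65 in WT and 6.76, 6.64 and 6.87 in VAChT KDHOM. VAChT KDHOM array 3 was the highest and WT array 1 the lowest, the reverse of Th, and the groups overlapped. The difference was 0.09 (standard error 0.09, 95% interval -0.12 to 0.31) and 0.19 without both arrays numbered 2. Slc18a2 (probe set 10464370), the vesicular monoamine transporter, read 6.09, 6.10 and 6.02 in WT and 5.92, 6.21 and 6.06 in VAChT KDHOM. Its WT values lay within those of VAChT KDHOM, and the difference was -0.01 (standard error 0.09, 95% interval -0.23 to 0.21) and -0.06 without both arrays numbered 2. Like Slc6a2 and Dbh, Slc18a2 read below the olfactory receptors' 95th percentile, so that 4 of the 7 genes lay above it and 3 below.

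The level of dim probe sets also differed between the arrays, and it moved with Th and Slc6a2. Over the 9199 probe sets whose mean signal fell within the range of the 7 genes, 5.74 to 7.13, the median signal was 6.54, 6.47 and 6.45 on WT arrays 1 to 3 and 6.41, 6.43 and 6.36 on VAChT KDHOM arrays 1 to 3. In this range the median difference was -0.11, and 73.1% of probe sets had a lower mean in VAChT KDHOM. An unadjusted limma p of 0.05 was passed by 14.3% of these probe sets on the lower side and by 3.35% on the higher side, and the groups separated with VAChT KDHOM lower at 22.3%. Across the 6 arrays, that median correlated with Th at r = 0.993, with Slc6a2 at 0.972, with Npy at 0.848 and with Pnmt at -0.787. For Ddc, Dbh and Slc18a2 the correlations were -0.01, 0.15 and 0.22. The mean signal of the olfactory receptors correlated with Th at r = 0.982, with Slc6a2 at 0.958, with Npy at 0.873 and with Pnmt at -0.796. With Ddc, Dbh and Slc18a2 it correlated at -0.06, 0.19 and 0.21.

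**Figure D2:**
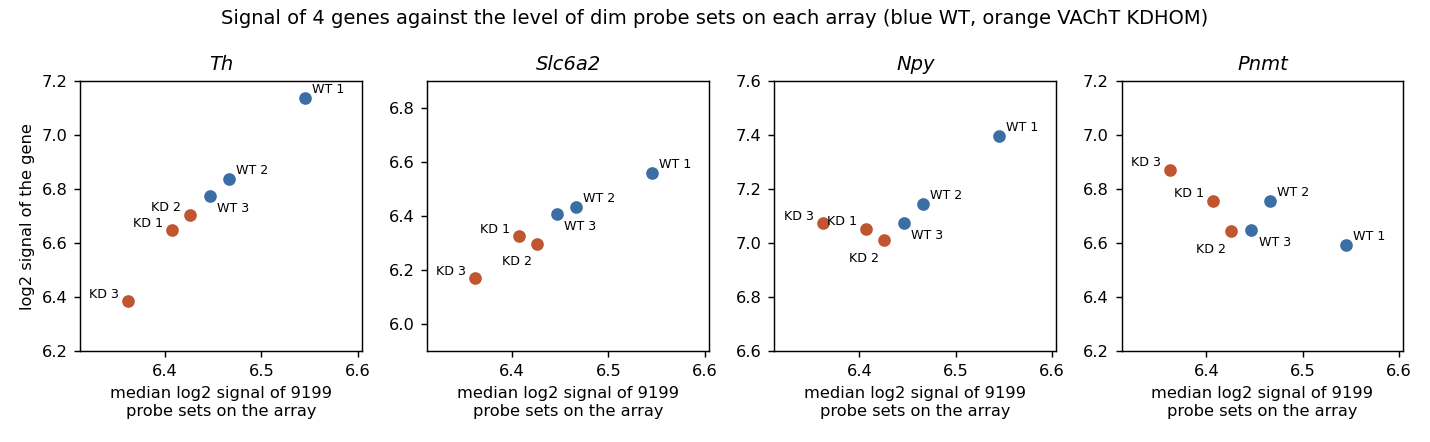
Log2 signal of Th, Slc6a2, Npy and Pnmt (vertical axes) against the median log2 signal of 9199 probe sets of similar brightness on the same array (horizontal axes), with 1 point per array, blue for WT and orange for VAChT KDHOM. Th and Slc6a2 were lowest on VAChT KDHOM array 3, where the horizontal value was lowest, and highest on WT array 1, where it was highest, whereas Pnmt ran the other way.

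Expressed relative to that median, Th read 0.59, 0.37 and 0.33 on WT arrays 1 to 3 and 0.24, 0.28 and 0.02 on VAChT KDHOM arrays 1 to 3 (log2). The groups did not overlap on this scale, and the difference was -0.25 (standard error 0.11, 95% interval -0.51 to 0.01, limma adjusted p = 0.464). For Slc6a2 the relative difference was -0.12 (standard error 0.08) with no overlap, and for Npy it was -0.07 (standard error 0.09) with overlap. As deposited, 12.9% of all probe sets and 22.3% in this signal range separated with VAChT KDHOM lower. These shares were not counted on the relative scale. A further quantile normalization gave -0.27 for Th, -0.12 for Slc6a2 and -0.11 for Npy, and centring each array on its median over all probe sets gave -0.27, -0.14 and -0.09. Of the probe sets past an unadjusted p of 0.05, 33.5% were higher in VAChT KDHOM as deposited, 42.0% after the quantile normalization and 64.8% after median centring. The part of the array level in the Th and Slc6a2 differences was not tested beyond these values.

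**Figure D3:**
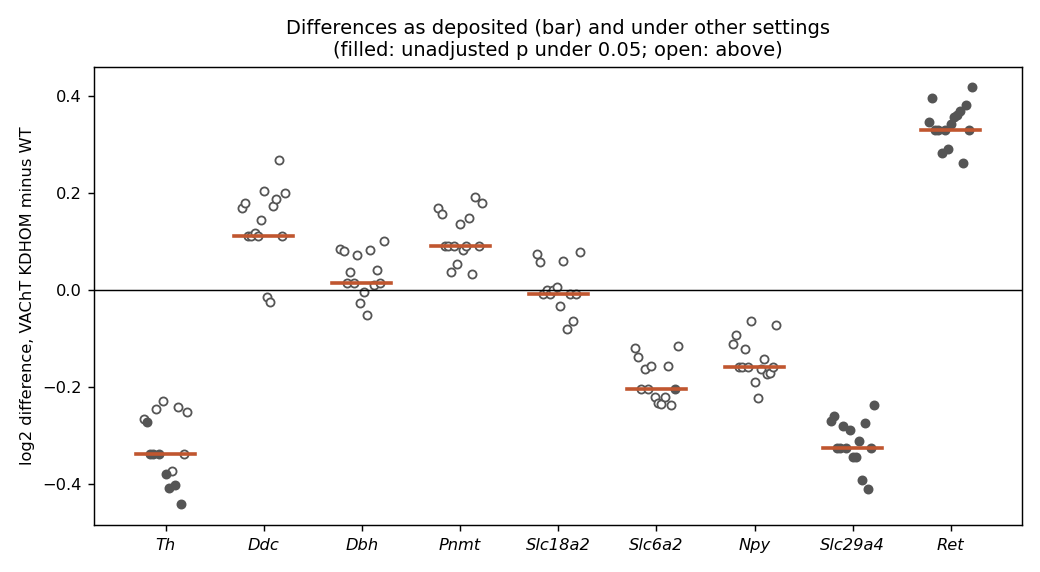
Log2 difference, VAChT KDHOM minus WT (vertical axis), of the 7 genes, Slc29a4 and Ret on the deposited values (bars) and under 14 or 15 other settings (points, filled where the unadjusted p was below 0.05). Th, Slc6a2 and Npy kept a negative difference and Pnmt a positive one throughout, and the points of Slc18a2 lay on both sides of 0.

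The genes around these 7 were taken as 10 lists, covering breakdown, uptake, cofactor synthesis, secretory granules, the NPY system, neurotrophic factors and their receptors, transcription factors of sympathetic neurons, axons and Schwann cells. Of 79 genes on the lists, 69 had a probe set listed under the single symbol. None of the 69 passed an adjusted p of 0.05 in limma (lowest 0.409), 8 were lower and 1 higher at an unadjusted p of 0.05 (over all probe sets, 7.81% were lower and 3.93% higher, and in the signal range of the 7 genes 14.3% and 3.35%), and their median difference was -0.10, beside -0.11 over the probe sets in the signal range of the 7 genes. A mean below WT was found at 57 of the 69 on the deposited values, at 49 after quantile normalization, at 42 after median centring and at 40 relative to the median of the signal range. As deposited, so did 54.2% of all probe sets, 73.1% in that signal range and 83.7% of olfactory receptors. Under the other scalings, in that order, the median difference was -0.05, -0.04 and -0.01 for the 69. For the probe sets in that range it was -0.04, -0.05 and -0.03, and shares were not counted. The 8 were Slc29a4, Slc22a2, Gchfr, Chga, Scg5, Npy4r, Artn and Nefh, and the 1 was Ret.

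Noradrenaline that escapes reuptake is taken up by other cells and broken down by monoamine oxidases. Of the uptake list, both measured genes were lower at an unadjusted p of 0.05, as were 7.81% of all probe sets and 14.3% in the signal range of the 7 genes. Slc29a4, the plasma membrane monoamine transporter, read 7.28, 7.17 and 7.17 on WT arrays 1 to 3 and 6.85, 7.01 and 6.78 on VAChT KDHOM arrays 1 to 3. Its groups did not overlap, and the difference of -0.33 (standard error 0.09, 95% interval -0.54 to -0.11, limma adjusted p = 0.409) kept an unadjusted p below 0.05 under all 15 other settings, which keep the labels. It was -0.41 without both arrays numbered 2. Slc29a4 was named for its unadjusted p on these arrays, and the settings reuse the same arrays, so they are not independent of that choice. Slc22a2, the organic cation transporter OCT2, differed by -0.25 (standard error 0.10) at a signal below the olfactory receptors' 95th percentile. Monoamine oxidases A and B, Maoa and Maob, differed by -0.03 (standard error 0.08) and -0.02 (standard error 0.11), and Rnls, listed with them, also missed the threshold.

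Th needs tetrahydrobiopterin, and of the 6 genes that make, recycle or regulate this cofactor 1 was lower at an unadjusted p of 0.05 and none higher. That gene, Gchfr, encodes the feedback regulatory protein of GTP cyclohydrolase, and it read 7.43, 7.35 and 7.47 in WT and 7.17, 7.08 and 7.25 in VAChT KDHOM. The difference was -0.25 (standard error 0.08), without overlap. Among 11 genes of secretory granules and vesicles, 10 had a difference below 0 on the deposited values and under all 3 other scalings, and 2 were lower at an unadjusted p of 0.05. Over all probe sets 54.2% had a difference below 0 on the deposited values, and in the signal range of the 7 genes 73.1% did, with 7.81% and 14.3% lower at that threshold. Of these 11 genes, 2 lay above the olfactory receptors' 95th percentile. Among the olfactory receptor probe sets, 83.7% had a difference below 0 as deposited. Their median difference was -0.09 after quantile normalization and -0.05 after median centring, beside -0.07 and -0.09 for the 11 genes. Shares below 0 were not counted over all probe sets under the other scalings. Chga, chromogranin A of catecholamine granules, read 7.15, 6.94 and 6.95 in WT and 6.84, 6.78 and 6.70 in VAChT KDHOM, a difference of -0.24 (standard error 0.09). Scg5, the chaperone of prohormone convertase 2, differed by -0.28 (standard error 0.12) with overlap between the groups, at a signal below that percentile, and by -0.45 without both arrays numbered 2.

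Receptors of NPY and enzymes of neuropeptide processing formed a list of 9 genes, of which only Npy4r passed an unadjusted p of 0.05. It encodes a receptor of the pancreatic polypeptide family and differed by -0.35 (standard error 0.12), at a mean signal of 5.69, below the olfactory receptors' 95th percentile. Of the neurotrophic ligands, 5 of 7 were measured, all 5 had a difference below 0 (4 under each of the 3 other scalings), and Artn, artemin, a guidance and survival factor of sympathetic neurons, was lower at an unadjusted p of 0.05 (-0.25, standard error 0.08), at a signal below the olfactory receptors' 95th percentile. On the deposited values 54.2% of all probe sets had a difference below 0 and 7.81% were lower at that threshold. In the signal range of the 7 genes these shares were 73.1% and 14.3%. They were not counted under the other scalings.

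Among 8 measured receptors of these factors, Ret was higher at an unadjusted p of 0.05 and none was lower. At that threshold 3.93% of all probe sets were higher and 7.81% lower, and in the signal range of the 7 genes 3.35% and 14.3%. Ret, the signaling receptor shared by artemin and the other ligands of the GDNF family, read 7.31, 7.42 and 7.44 on WT arrays 1 to 3. On VAChT KDHOM arrays 1 to 3 it read 7.66, 7.64 and 7.86, without overlap. The difference of 0.33 (standard error 0.09, 95% interval 0.12 to 0.54) corresponds to 1.26-fold, with a limma unadjusted p of 0.00764 and an adjusted p of 0.409. It was 0.38 without both arrays numbered 2 and lay between 0.26 and 0.42 under the 15 other settings, all of which keep the labels, each with an unadjusted p below 0.05. Ret was named for its p on these arrays, and the settings reuse the same arrays, so they are not independent of that choice. Ngfr, the low-affinity neurotrophin receptor of sympathetic axons and Schwann cells, read 7.27, 7.06 and 7.22 in WT and 6.91, 7.16 and 6.95 in VAChT KDHOM. Its groups overlapped through the arrays numbered 2, and the difference was -0.17 (standard error 0.10) with all arrays and -0.31 without those 2.

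**Figure D4:**
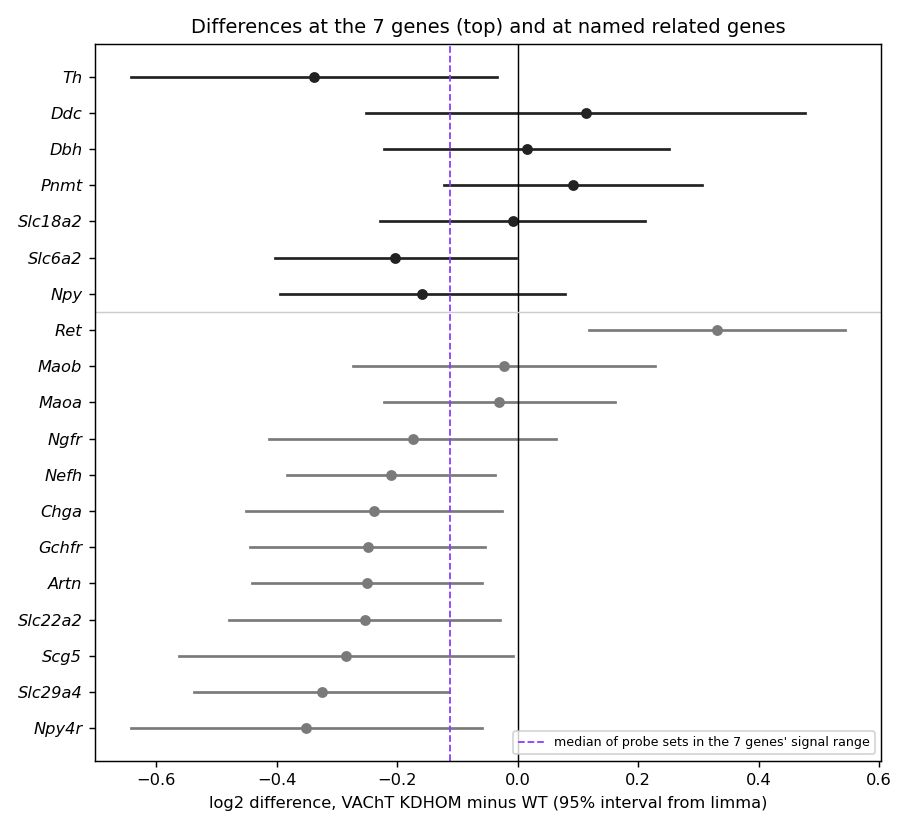
Log2 difference between VAChT KDHOM and WT with its 95% interval from limma (horizontal axis) for the 7 genes (top) and for 12 related genes (bottom) named in the text. The dashed line marks the median difference of -0.11 over probe sets in the signal range of the 7 genes, and the interval of Ret lay to the right of 0 while that of Slc29a4 lay to the left.

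Markers of nerve fibres, of their glia and of neighboring tissue were read on the same arrays. All 12 axon and pan-neuronal genes had a difference below 0 on the deposited values, with a median of -0.10, but 7 did after quantile normalization, 7 after median centring and 6 relative to the median of the signal range. As deposited, 54.2% of all probe sets had a difference below 0. In the signal range of the 7 genes 73.1% did, with a median of -0.11. Under the 3 other scalings, in the same order, that median was -0.04, -0.05 and -0.03, and the shares were not counted. Of the 12 only Nefh, the heavy neurofilament protein, passed an unadjusted p of 0.05 (-0.21, standard error 0.07). At that threshold 7.81% of all probe sets were lower and 3.93% higher, and in the signal range of the 7 genes 14.3% and 3.35%. The mean signal over the 12 genes was 6.30 to 6.46 on the WT arrays and 6.18 to 6.33 on the VAChT KDHOM arrays, so the groups overlapped, and 6 of the 12 lay above the olfactory receptors' 95th percentile. None of 7 measured transcription factors of sympathetic neurons and none of 6 measured Schwann cell genes passed that threshold in either direction, with medians of -0.13 and -0.11. The 3 cholinergic genes Slc18a3, Chat and Slc5a7 had a median difference of -0.08, which was 0.01 relative to the median of the signal range, and none passed the threshold.

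Atrial genes, from the more densely innervated chambers, averaged 9.0 to 9.23 on the WT arrays and 9.15 to 9.95 on the VAChT KDHOM arrays, with the highest value on VAChT KDHOM array 3. Bmp10, a growth factor of atrial muscle, read 7.43 on that array and 5.19 to 5.64 on the other 5. Th and Slc6a2 were lowest on the same array. Ventricular cardiomyocyte genes averaged 13.9 to 14.0 on 5 arrays and 13.2 on VAChT KDHOM array 1, and all 7 lay above the olfactory receptors' 95th percentile. The direction of this list depended on the scaling. Its median difference was -0.26 on the deposited values and 0.02 after quantile normalization. It was -0.20 after median centring and -0.17 relative to the median of the signal range. A difference below 0 was found at 5 of the 7 as deposited and after either centring, and at 2 after quantile normalization. Without VAChT KDHOM array 3 the Th difference was -0.24 and without VAChT KDHOM array 1 it was -0.37. The part of tissue composition in these differences was not tested.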

How the data were processed

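RNA of 6 heart pools was labelled and hybridised to Affymetrix Mouse Gene 1.0 ST arrays. The authors read them with Command Console 1.1 and Partek Genomics Suite 6.5, and the deposited values are log2 signals after RMA. RMA corrects background and normalizes the arrays to each other, so small shifts shared by many genes may be lost. The median over all probe sets still ran from 6.84 on VAChT KDHOM array 3 to 6.98 on WT array 1. The genome build behind the probe sets is not given in the sources used here.

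Groups and array numbers followed the labels. The platform annotation names 1 symbol for 21789 probe sets, and those with several or none were fitted but not named. The deposited log2 signals of all 35556 probe sets entered 1 limma fit (version 3.58.1, R 4.3.3) on genotype, with moderated two-sided tests and Benjamini-Hochberg adjustment over the whole table. The fit was tested on simulated data. Single genes could not reach p under 0.1 by exact permutation with these group sizes.

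The 7 genes and all lists were chosen with earlier results of these data known. Named beside them were the monoamine oxidases, Ngfr, list genes with an unadjusted p under 0.05 (at most 4 per list), Slc18a3 and Ogdhl, and the gene nearest in pattern to each of the 7. For a gene with several probe sets the brightest was used. Rnls and Bmp10, which the rule did not name, were chosen after their values were seen. Alternatives were quantile normalization, median centring, a filter on dim probe sets, other eBayes options, array weights, a block on the array number, arrays left out and the methods' ANOVA, and centring on the signal range of the 7 genes, which was added after seeing the data. The number of arrays limits the precision.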

Additional observations from a re-analysis of the deposited data

How the results depend on the processing

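Of the 7 genes, Th, Slc6a2, Npy and Pnmt kept the sign of their difference under all alternatives in which they were measured (15, or 14 for Slc6a2, which the filter on dim probe sets removed), and no gene of the 7 reached an adjusted p of 0.05 under any of them (lowest 0.371). Leaving out single arrays gave -0.024 to 0.21 for Ddc, -0.051 to 0.084 for Dbh, -0.080 to 0.061 for Slc18a2, -0.065 to 0.013 for Maoa, -0.10 to 0.050 for Maob and -0.27 to 0.13 for Slc18a3. The sign of Slc18a2 also turned with quantile normalization (0.074), median centring (0.058), array weights (0.00051) and centring on the signal range of the 7 genes (0.079). Maoa turned with quantile normalization and both centrings to 0.053, 0.036 and 0.058, Maob to 0.044 with median centring, 0.065 with range centring and 0.11 without both arrays numbered 2, and Slc18a3 to 0.0070 with range centring and 0.20 without both arrays numbered 2. The number of the 7 genes lower at an unadjusted p of 0.05 was 2 as deposited. It was 1 with the methods' ANOVA, without both arrays numbered 2, with trend and robust eBayes, with the filter, with median centring and with the replicate block, 0 with array weights, quantile normalization and range centring, and 0 to 1 without single arrays. Of the related genes, 8 were lower as deposited, 4 after quantile normalization, 1 after either centring and 4 to 9 without single arrays. The number higher was 1 as deposited, 2 without both arrays numbered 2 or with range centring and 1 to 2 without single arrays. Over all probe sets, 1 passed an adjusted p of 0.05 as deposited, 0 with ANOVA, the filter, the block, without both arrays numbered 2 or without any single array, and 3 with array weights. At an unadjusted p of 0.05, 2776 were lower and 1398 higher as deposited, 1300 and 2390 after median centring, 992 and 2818 after range centring (74.0% higher), 1585 and 917 with the filter, and 1311 to 2915 and 849 to 1743 without single arrays. Counts were 2128 and 1539 after quantile normalization, 2610 and 1508 with trend and robust eBayes, and 2248 and 1224 with array weights. They were 2192 and 1587 without both arrays numbered 2, and 2119 and 962 with the methods' ANOVA. Except where the construction shows it (fewer probe sets or arrays), the cause was not tested. The deviations of same-numbered arrays correlated at 0.06, -0.12 and 0.13, and those of differently numbered arrays at -0.21 to 0.18. With 3 arrays per group these values cannot show whether the array numbers pair the samples. With the replicate block, the limma unadjusted p was 0.0197 for Th and 0.0517 for Slc6a2, with 2908 probe sets lower and 1563 higher. Signal near background limits Slc6a2, Dbh and Slc18a2. The means of Th (6.75) and Pnmt (6.71) lay little above the olfactory receptors' 95th percentile of 6.5. Th read 6.38, below that percentile, on VAChT KDHOM array 3.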
